A study of Mus musculus with 2 samples.

Results

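The Akr1b genes encode the aldose reductase branch of the aldo-keto reductases, enzymes that use NADPH to reduce aldehydes to alcohols. Members were taken by symbol, and all 4 (Akr1b3, Akr1b7, Akr1b8 and Akr1b10) were found among 55536 annotated genes. The data are total RNA sequencing of adrenal gland tissue from male mice of the F1 hybrid B6CASTF1/J, aged 25 days, for which no treatment is named, with 300 ng of RNA per library and ERCC spike-in RNAs added. There was 1 group of 2 libraries, so nothing could be compared between conditions, and the results are levels, transcript makeup and the difference between these libraries. The biosample labels name a separate animal for each library, but the library labels name the same animal for both and the donor label is shared, so the spread between the libraries may be technical.

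Aldose reductase itself, Akr1b3, turns glucose into sorbitol, the first step of the polyol pathway, and is known as a gene induced by osmotic stress. Akr1b7 was first described as an androgen-dependent protein of the mouse vas deferens. In the adrenal cortex it is known as a target of ACTH that reduces isocaproaldehyde, the aldehyde released when the side chain of cholesterol is cleaved to start steroid synthesis. Akr1b7 and Akr1b3 are also known to make prostaglandin F2-alpha. Akr1b8 was described as a protein induced by fibroblast growth factor, and Akr1b10 is its close relative.

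The libraries held 35283841 and 35156690 expected counts, of which spike-ins took 0.839% and 0.915%. Defining genes of the gland were present: all 10 steroidogenic cortex genes and all 6 chromaffin genes of the lists reached 1 TPM (the usual level scaled by transcript length and library total) in both libraries. Genes of neighbouring tissues separated the libraries. Replicate 1 held 112 TPM over the 8 liver genes where replicate 2 held 22254, and for the 6 skeletal muscle genes the sums were 1143 and 1.84 TPM, with no gene of either list at 0 counts. The 6 kidney genes summed to 0.51 and 0.48 TPM, and Umod, Slc12a1, Slc34a1 and Kap were at 0 counts in both. White fat genes summed to 1781 and 1328 TPM and brown fat genes to 1173 and 803 TPM. In bulk tissue, fewer cells of a type and less RNA per cell cannot be told apart.

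Akr1b7 was by far the most abundant member. It lies at mm10 chromosome 6, 34412334 to 34423142, on the plus strand (ENSMUSG00000052131.7). Its level was 1394 TPM in replicate 1 against 420.6 TPM in replicate 2, from 56291 and 16864 expected counts, which gave 907 ± 688 TPM (SD, n = 2). Replicate 1 was thus the higher library, and the SD was nearly as large as the mean. Among nuclear protein-coding genes Akr1b7 ranked 11 in replicate 1 and 81 in replicate 2. It supplied 86.7% of the summed Akr1b TPM in replicate 1 and 76.2% in replicate 2. That sum was 1607 and 551.6 TPM.

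The other members formed a lower tier in both libraries. Akr1b3 (ENSMUSG00000001642.18, chromosome 6, 34302434 to 34317478, minus strand) was at 87.9 and 56.2 TPM in replicates 1 and 2, or 72.0 ± 22.4 TPM. Akr1b8 (ENSMUSG00000029762.6, 34354119 to 34368463, plus strand) was at 75.8 and 43.8 TPM, or 59.8 ± 22.7 TPM. Akr1b10 (ENSMUSG00000061758.13, 34384218 to 34396950, plus strand) was at 49.3 and 31.1 TPM, or 40.2 ± 12.9 TPM. All 3 were higher in replicate 1. The range of Akr1b8 over the libraries overlapped those of Akr1b3 and Akr1b10, the ranges of Akr1b3 and Akr1b10 did not overlap, and none reached the range of Akr1b7.

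Within a library the order was the same in both. Akr1b7 exceeded Akr1b3 by 3.45 ± 0.77 in log2 TPM (SD, n = 2), a gap several times its spread. Akr1b3 exceeded Akr1b8 by only 0.29 ± 0.10, and Akr1b8 exceeded Akr1b10 by 0.56 ± 0.09. The step from Akr1b3 to Akr1b8 depended on which transcripts were counted. With the longest coding transcript of each gene alone, Akr1b3 was below Akr1b8 in both libraries, by 0.55 and 0.31 in log2 TPM, and in the second quantification of the same reads the whole Akr1b3 gene was above Akr1b8 by 1.01 and 1.20. The rank of these neighbours is therefore not settled by these tables, while the first place of Akr1b7 held in each of them.

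**Figure D1:**
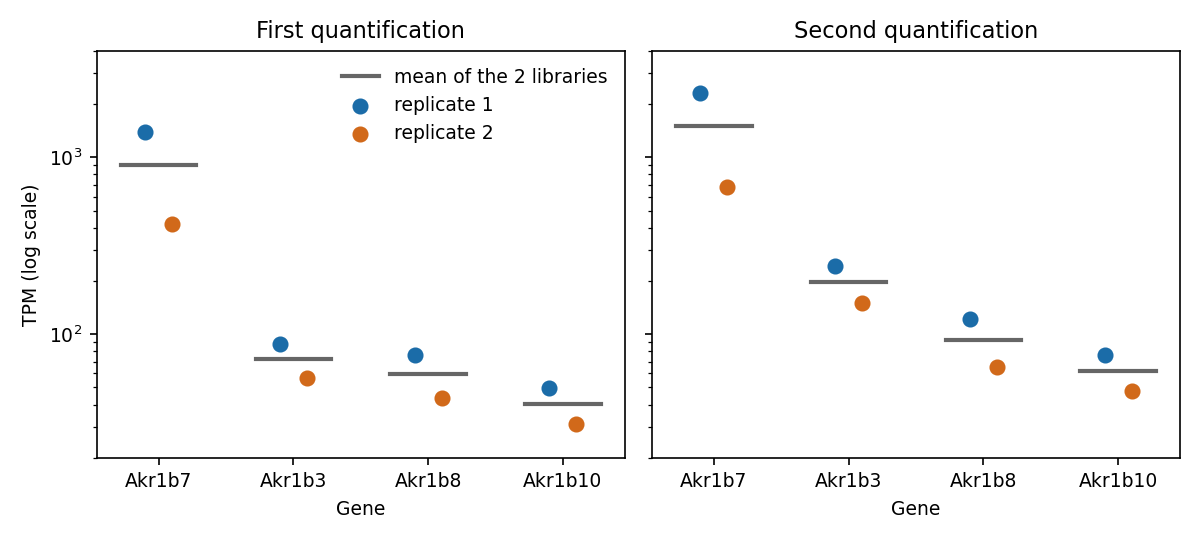
Level of each Akr1b gene in TPM (log axis) in the first (left) and second (right) quantification; points are the libraries and grey lines the mean of both. Akr1b7, at 1394 and 420.6 TPM in the first, stands apart from the other members, and replicate 1 is the higher library for each gene.

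The members lie in 1 cluster within 34302434 to 34423142 of chromosome 6, and each has a coding transcript of 10 exons and 948 coding bases before the stop codon. All 4 coding sequences had the same base at 600 of 948 positions (63.3%). Akr1b7 and Akr1b10 were the most alike, with 89.2% identity. Akr1b8 matched Akr1b7 at 85.0% and Akr1b10 at 85.1%, and Akr1b3 matched the others at 72.1% to 73.1%. The stretches below were read from the GENCODE M21 transcripts (suffix 201) and run 5′ to 3′ along the mRNA. They show how alike and how unlike the 4 genes are within the coding sequence, and capitals mark bases that differ from Akr1b7. The first is the 60-base coding window most alike in all 4, coding bases 181 to 240, which spans an exon junction (49 positions are the same in all 4).
Akr1b7: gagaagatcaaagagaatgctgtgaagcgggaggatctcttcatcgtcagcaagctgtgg
Akr1b10: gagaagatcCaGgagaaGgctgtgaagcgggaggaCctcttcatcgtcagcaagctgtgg
Akr1b8: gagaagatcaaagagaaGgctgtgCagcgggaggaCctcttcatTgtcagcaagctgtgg
Akr1b3: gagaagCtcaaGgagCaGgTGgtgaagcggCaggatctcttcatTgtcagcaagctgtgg
The least alike window is coding bases 352 to 411, at chr6:34417283-34417342 in Akr1b7 and chr6:34310943-34311002 in Akr1b3, where 21 positions are the same in all 4.
Akr1b7: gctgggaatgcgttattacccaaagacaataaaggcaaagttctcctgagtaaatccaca
Akr1b10: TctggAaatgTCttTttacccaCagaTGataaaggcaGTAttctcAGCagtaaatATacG
Akr1b8: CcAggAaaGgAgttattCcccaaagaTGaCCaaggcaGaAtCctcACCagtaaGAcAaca
Akr1b3: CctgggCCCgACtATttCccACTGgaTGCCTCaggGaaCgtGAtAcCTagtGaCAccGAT
In that window Akr1b10 differed from Akr1b7 at 17 positions, Akr1b8 at 19 and Akr1b3 at 32.

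Reads were nonetheless separable between the paralogs of the cluster. Shared runs were counted on either strand, here and below. Of the runs of 31 bases in Akr1b7-201, 7.03% also occur in Akr1b10 and 3.28% in Akr1b8, and no run of 100 bases is shared among the 4 members. The deposited posterior SD of the count, which reflects how surely reads were assigned, was 4.05 of 56291 counts for Akr1b7 in replicate 1 and 2.68 of 16864 in replicate 2. For Akr1b8 it was 4.51 and 3.09 counts, and for Akr1b10 2.05 and 1.44 counts. The difference in level between Akr1b7 and its relatives is far larger than any of these.

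Akr1b3 was a different case, because its relatives outside the cluster are nearly identical to it. Of its 31-base runs, 90.8% occur on either strand of other annotated genes, and of its 100-base runs 74.0%. Among these genes are 3 processed pseudogenes, Gm12138 (ENSMUSG00000082087.4, chromosome 11, 40672906 to 40673856), Gm6736 (ENSMUSG00000071414.5, chromosome 12, 13455023 to 13455970) and Gm6644 (ENSMUSG00000100309.1, chromosome 1, 55444074 to 55445024), which matched the whole Akr1b3 coding sequence at 99.1%, 99.5% and 99.7%. Gm38056, a gene annotated on the opposite strand across Gm6644, was the fourth to share a run of 100 bases. It alone holds 88.3% of the 31-base and 66.7% of the 100-base runs of Akr1b3-201, as matches to its opposite strand. Gm6644 holds the next largest shares, 61.0% and 43.3%. The 60 coding bases where Gm12138 and Gm6736 together differ most from Akr1b3 (coding bases 85 to 144, chr6:34312730-34312789, minus strand) show how little separates them, with capitals for bases that differ from Akr1b3.
Akr1b3: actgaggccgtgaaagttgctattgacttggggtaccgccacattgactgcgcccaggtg
Gm12138: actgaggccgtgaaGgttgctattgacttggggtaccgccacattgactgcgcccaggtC
Gm6736: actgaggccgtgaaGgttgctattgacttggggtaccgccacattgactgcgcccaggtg

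The first quantification placed many reads on these copies. Akr1b3 had 2954 expected counts in replicate 1 and 1953 in replicate 2, with posterior SDs of 26.6 and 21.9. Gm12138 had 1043 and 681 counts and Gm6736 had 462 and 289. Gm6644, the copy most like Akr1b3, had 0 and 9.13 counts. Together the 4 genes took 34.5% of the counts of Akr1b3 and the copies in replicate 1 and 34.0% in replicate 2. In the second quantification the shares were 26.4% and 27.1%, since Gm12138 there had 509 and 348 counts while Akr1b3 had 2996 and 1978. Whether the pseudogenes are transcribed was not tested, and the level of Akr1b3 depends on how these reads are assigned. Its difference between the libraries was not affected: with the counts of the 4 genes added, an alternative chosen after the data were seen, its log2 ratio was -0.36 against -0.35 without them.

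**Figure D2:**
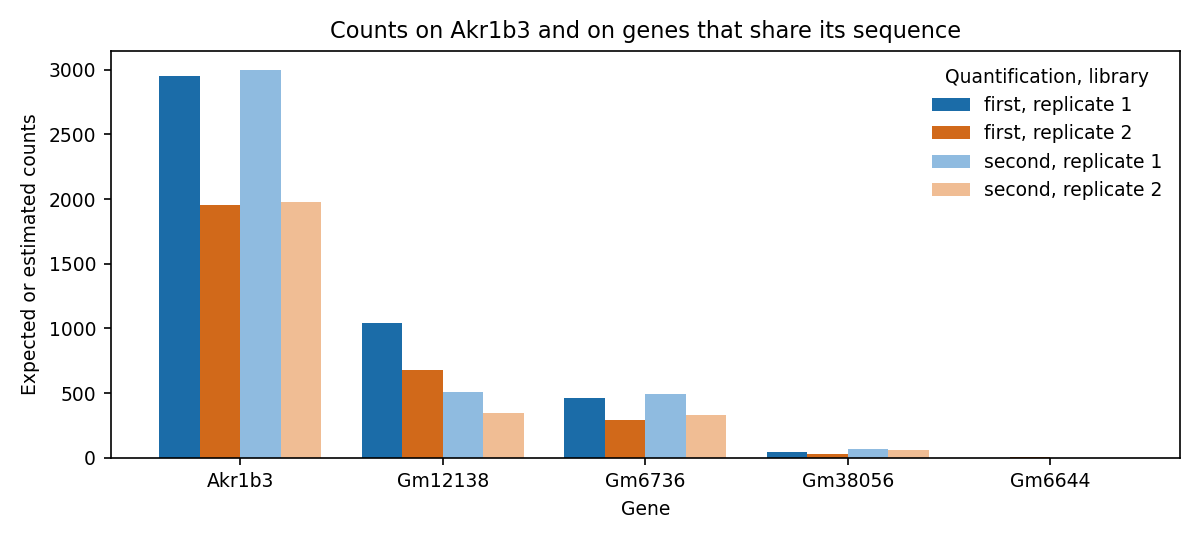
Counts (expected or estimated, linear axis from 0) on Akr1b3 and on the 4 genes that share runs of 100 bases with it on either strand, for each quantification and library. Gm12138 and Gm6736 carry at least 289 counts in each, up to 1043 for Gm12138 in the first quantification of replicate 1, while Gm6644 stays at or below 9.13.

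Other genes of the locus were at or near 0 in the first quantification. Gm14546, annotated antisense across the whole of Akr1b3, had 0 and 1 count. Gm13857, annotated opposite the last 3747 bases of Akr1b7, had 0 counts in both, although 19.2% of the 31-base runs of Akr1b7-201 occur on either strand of it. The pseudogenes Gm13859 and Gm13858, which lie between Akr1b8 and Akr1b10, had at most 5 counts in either library. The labels point to a directional library kit, but whether counting used strand is not known here. Bpgm, the next gene downstream of Akr1b7 and the maker of 2,3-bisphosphoglycerate in red cells, was at 14.3 and 12.0 TPM, or 13.2 ± 1.65 TPM. Its log2 ratio between the libraries was -0.01 (95% counting interval -0.16 to 0.15), so the gene beside Akr1b7 did not show the difference that Akr1b7 showed.

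The next question was how far the libraries differed for each member. Counts were scaled by the TMM method and the ratio of replicate 2 to replicate 1 was given with a 95% exact counting interval. With 1 library on each side there is no replicate check and no test, and a gene was called different at 2-fold or more. Akr1b7 was lower in replicate 2 by 1.49 on the log2 scale, written as a log2 ratio of -1.49 (interval -1.52 to -1.47), which is 2.81-fold. Akr1b8 had a log2 ratio of -0.55 (-0.64 to -0.47), Akr1b10 of -0.40 (-0.50 to -0.30) and Akr1b3 of -0.35 (-0.43 to -0.27). So 1 of 4 members passed 2-fold, as lower in replicate 2. Over all 19801 genes tested, 14.1% differed at least 2-fold, 3.86% as lower and 10.3% as higher in replicate 2, and the median log2 ratio was 0.00. The intervals cover counting error only.

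Akr1b7 was among the more extreme genes of its abundance. Of 545 nuclear protein-coding genes with a mean of at least 100 TPM, a cut that was not planned, only Acta1, Mylpf and Akr1c18 had a lower log2 ratio. Of the 13992 tested genes with a mean of at least 1 TPM, 141 (1.00%) had a lower one, as had 2.21% of all genes tested. Acta1 and Mylpf are skeletal muscle genes, and Akr1c18 marks the X-zone, the transient inner zone of the mouse cortex. The other X-zone genes did not share that direction with TMM, with Thrb at a log2 ratio of 0.20 (-0.04 with total counts) and Pik3c2g at 1.39. The libraries also differed in liver genes (median log2 ratio 9.74, 8 of 8 tested at least 2-fold higher in replicate 2) and muscle genes (median -10.87, 6 of 6 at least 2-fold lower). The part of this in the ratios of the Akr1b and X-zone genes was not tested.

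The steroidogenic genes gave a nearer point of reference. All 10 had log2 ratios below 0, from -0.91 to -0.37 with a median of -0.65, and none passed 2-fold with TMM. Star, which carries cholesterol into mitochondria, was at -0.62, Cyp11a1, which cleaves its side chain, at -0.63, and Hsd3b1 at -0.52. The ratios of Akr1b8 and Akr1b10 lay within this range, that of Akr1b3 just above it and that of Akr1b7 below it. Of the zona fasciculata genes, Cyp11b1 was at -0.75, the ACTH receptor accessory protein Mrap at -0.85, the ACTH receptor Mc2r at -0.39 and Abcb1b at -0.18. The 8 zona glomerulosa genes had a median of -0.28 and the 6 chromaffin genes a median of -0.27, with none at least 2-fold different in either list with TMM.

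**Figure D3:**
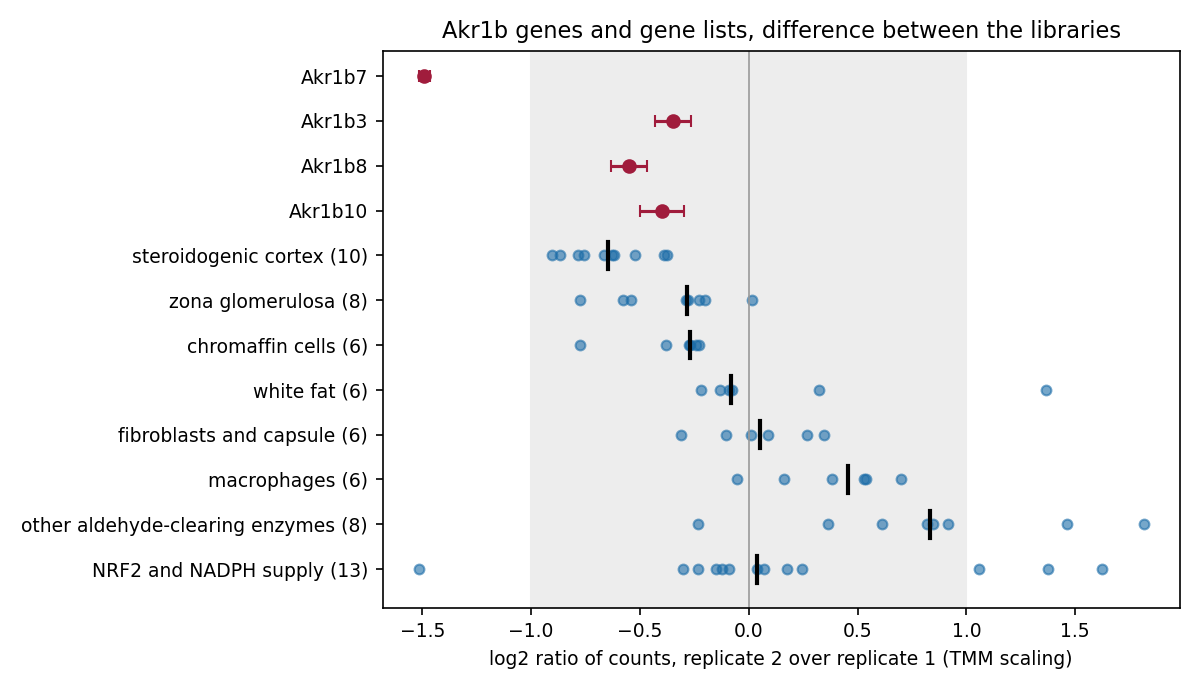
Log2 ratio of counts, replicate 2 over replicate 1, for each Akr1b gene (red, with its 95% counting interval) and for the genes of 8 lists (blue points, black bar for the median, number of genes in brackets); the grey band is within 2-fold. Akr1b7 at -1.49 lies outside the band and below every steroidogenic gene, while the other members lie between -0.55 and -0.35.

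Ratios within a library do not depend on scaling between libraries and gave the same picture. Akr1b7 stood at 98.0% of the Cyp11b1 TPM in replicate 1 and 58.8% in replicate 2. Against Cyp11a1, the enzyme whose by-product it reduces, it stood at 68.7% and 37.8%. Against Star the values were 42.7% and 22.9%, and against Hsd3b1 40.9% and 20.9%. In log2 terms Akr1b7 was lower relative to each of 6 cortical genes in replicate 2, with a difference of -0.72 against Cyp21a1 at the least and -1.10 against Mc2r at the most. The other members moved less relative to these genes. Akr1b8 stood at 2.32% and 2.38% of Star, Akr1b3 at 2.69% and 3.05%, and Akr1b10 at 1.51% and 1.69%. Over the 6 genes their log2 ratios moved by -0.17 to 0.37. The largest move was that of Akr1b3 against Cyp21a1, from 4.40% to 5.68%.

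**Figure D4:**
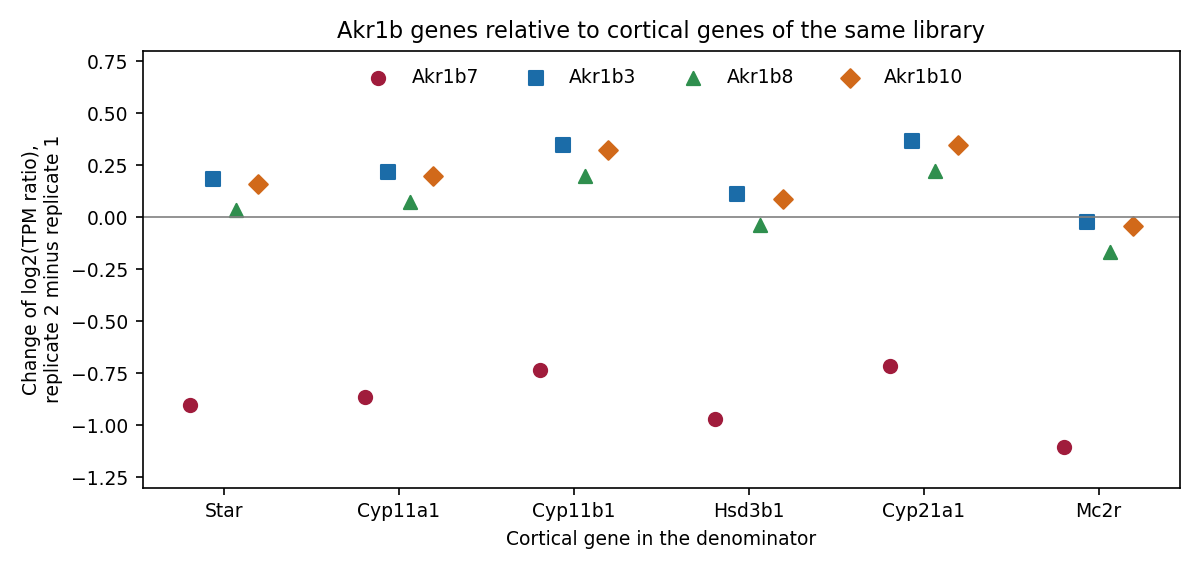
Change between the libraries (replicate 2 minus replicate 1) in the log2 TPM ratio of each Akr1b gene to 6 cortical genes of the same library. Akr1b7 lies between -1.10 and -0.72 for all 6, and the other members lie between -0.17 and 0.37.

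Scaling changed the sign of the smaller differences. With the summed counts of the 10 steroidogenic genes in place of TMM sizes, an alternative added after the data were seen, the log2 ratio was 0.31 for Akr1b3, 0.26 for Akr1b10 and 0.10 for Akr1b8, all above 0, and -0.84 (-0.86 to -0.81) for Akr1b7, which no longer passed 2-fold. Total counts moved the median of genes with a mean of at least 1 TPM to -0.25 and spike-in totals to -0.37. Akr1b7 was then at -1.73 and -1.86, still more than 2-fold lower. Of the 10 steroidogenic genes, 3 then passed 2-fold as lower with total counts (Fdx1, Scarb1 and Cyp21a1) and 5 with spike-in totals (Cyp11b1 and Nr5a1 in addition). Agtr1a of the zona glomerulosa list, Pnmt of the chromaffin list and Mrap also passed 2-fold as lower under both. Of the genes at least 2-fold different, the share that was higher in replicate 2 was 72.7% (2037 against 764 lower) under TMM, 60.4% (1707 against 1121) under total counts and 51.9% (1560 against 1443) under spike-in totals.

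Transcript makeup differed strongly between members. Akr1b7 has a single annotated transcript, Akr1b7-201. Akr1b8 was nearly all Akr1b8-201, at 99.3% of the gene TPM in replicate 1 and 99.6% in replicate 2, and at 100% in the second quantification. Akr1b10-201 held 61.9% and 77.5% of the Akr1b10 TPM, and Akr1b10-203, annotated as a target of nonsense-mediated decay, held the next largest share in the first quantification, at 21.7% and 11.1%. The count on Akr1b10-203 was 431 with a posterior SD of 88.7 in replicate 1 and 138 with one of 62.4 in replicate 2. In the second quantification it held 4.90% and 3.63% and Akr1b10-201 held 74.6% and 75.5%.

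For Akr1b3 a short transcript weighed heavily. Akr1b3-201, the full coding transcript of 1387 nt, held 58.6% of the gene TPM in replicate 1 and 62.7% in replicate 2. Akr1b3-204, annotated as a retained-intron transcript of 554 nt over the last exons (34303934 to 34306687), held 39.2% and 34.4%. By counts it was smaller, at 18.1% and 15.3%, since a short transcript gains TPM per read. Of its 554 nt, 65 lie outside Akr1b3-201. In the second quantification Akr1b3-201 held 27.7% and 30.0% of the TPM, Akr1b3-204 held 49.6% and 47.6%, and Akr1b3-205, a coding fragment of 583 nt, held 21.9% and 21.4%.

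This carried into the level of the gene. Both quantifications gave Akr1b3 nearly the same counts, with a ratio of second to first of 1.01 in each library. Its TPM was nevertheless 2.78 and 2.66 times as high in the second, at 244.1 and 149.6 TPM. The same ratio was 1.66 and 1.61 for Akr1b7, 1.60 and 1.48 for Akr1b8 and 1.55 and 1.55 for Akr1b10, close to the median of 1.73 and 1.66 over nuclear protein-coding genes. The effective length of Akr1b3-204 was 455 nt in the first quantification and 229 nt in the second for replicate 1. Counts on Akr1b3 were therefore alike in both, and its TPM was not.

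**Figure D5:**
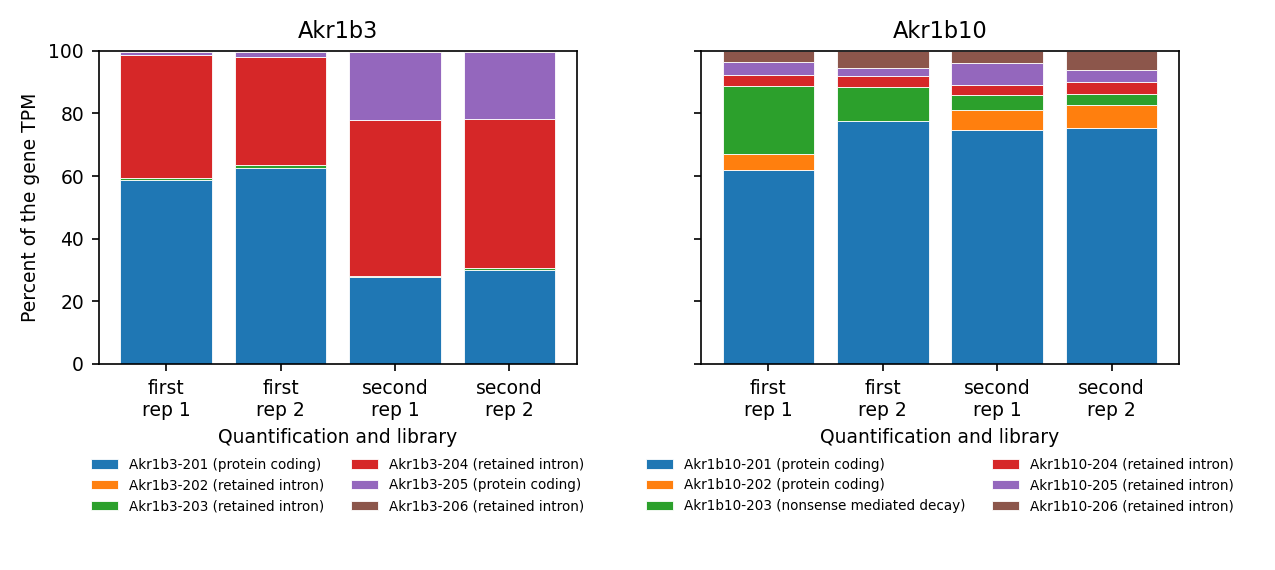
Percent of the gene TPM on each annotated transcript of Akr1b3 (left) and Akr1b10 (right), stacked to 100, in both quantifications and libraries. The share of Akr1b3-201 is 58.6% and 62.7% in the first and 27.7% and 30.0% in the second, and Akr1b10-203 takes 21.7% and 11.1% in the first and 4.90% and 3.63% in the second.

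The sequence just upstream of 3 members was searched for motifs, since these neighbours differ many-fold in level. The windows are RefSeq promoter sequences (GRCm38.p6), shown from their first base to the base before the GENCODE start of each gene, plus strand, with capitals for a motif found on either strand. The parts shown are chr6:34412112-34412333 for Akr1b7, chr6:34383997-34384217 for Akr1b10 and chr6:34353896-34354118 for Akr1b8. The search also covered the rest of each window, where no motif was found.
Akr1b7: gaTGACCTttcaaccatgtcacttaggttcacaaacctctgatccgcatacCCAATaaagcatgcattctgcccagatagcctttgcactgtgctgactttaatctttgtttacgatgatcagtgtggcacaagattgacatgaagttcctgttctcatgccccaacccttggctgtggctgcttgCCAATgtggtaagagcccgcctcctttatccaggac
Akr1b10: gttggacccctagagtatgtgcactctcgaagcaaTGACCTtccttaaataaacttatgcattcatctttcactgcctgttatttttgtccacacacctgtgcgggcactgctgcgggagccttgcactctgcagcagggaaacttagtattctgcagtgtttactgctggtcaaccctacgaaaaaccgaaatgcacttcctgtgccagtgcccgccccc
Akr1b8: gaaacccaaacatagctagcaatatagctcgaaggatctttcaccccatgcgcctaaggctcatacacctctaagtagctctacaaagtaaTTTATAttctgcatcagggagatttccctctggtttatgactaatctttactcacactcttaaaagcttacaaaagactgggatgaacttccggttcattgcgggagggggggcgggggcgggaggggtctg
The nuclear receptor half-site AGGTCA occurs on the reverse strand in Akr1b7 and Akr1b10, and in 16.3% of 32851 RefSeq promoter windows of the same full length. CCAAT occurs at 2 places in Akr1b7 and in neither of the others, and in 37.4% of all windows. TATAAA occurs on the reverse strand in Akr1b8 and in 13.6% of windows. The longer site CAAGGTCA, which contains AGGTCA, the cyclic AMP response element TGACGTCA and the antioxidant response core TGACNNNGC were in none of the 3 windows, and in 1.56%, 1.79% and 12.4% of all windows. The upstream parts shown were less alike than the coding sequences, at 48.8% identity for Akr1b7 and Akr1b10, 46.3% for Akr1b7 and Akr1b8 and 44.9% for Akr1b8 and Akr1b10. These are gapped alignments with identical runs of at most 9 bases. Unrelated sequences were not aligned in the same way, so the values do not show that these parts are related.

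Genes known to act with the Akr1b enzymes were then read from lists. Of 14 genes of the ACTH signal and the regulators known for Akr1b7, 12 reached 1 TPM in both libraries, and their median log2 ratio was -0.06. Mrap was at 165 and 78.6 TPM, the kinase subunit Prkar1a at 134 and 87.8 TPM and the transcription factor Nr5a1 at 129 and 68.9 TPM. With TMM, all 4 genes at least 2-fold different were nuclear receptors that were higher in replicate 2: Nr1h3 at 10.4 and 24.5 TPM, Nr1h4 at 8.46 and 21.8 TPM, Nr1i3 at 0.21 and 21.3 TPM and Nr1i2 at 0.02 and 7.40 TPM. These receptors are also known from liver, whose genes are summed above. Over all genes tested 10.3% were at least 2-fold higher in replicate 2.

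Downstream of aldose reductase, 3 of the 6 polyol and fructose genes tested passed 2-fold as higher in replicate 2 and none as lower, with a median log2 ratio of 1.65. Over all genes tested 10.3% passed as higher and 3.86% as lower. Sord, which turns sorbitol into fructose, was at 24.0 and 123 TPM, fructokinase Khk at 15.0 and 72.1 TPM and Tkfc at 6.63 and 43.5 TPM. Akr1b3, at 87.9 and 56.2 TPM, was above Sord in replicate 1 and below it in replicate 2. Replicate 2 is the library with the liver transcripts, and their part in these genes was not tested. In replicate 1, where the liver list was low, Sord and Khk were still present.

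The osmotic genes that share a regulator with Akr1b3 were read next. The regulator Nfat5 was at 48.9 and 35.5 TPM, the taurine transporter Slc6a6 at 149 and 102 TPM, the amino acid transporter Slc38a2 at 48.1 and 33.7 TPM and the inositol transporter Slc5a3 at 14.3 and 7.65 TPM. Their log2 ratios were -0.15 to -0.43, around that of Akr1b3 at -0.35. The betaine transporter Slc6a12 was the exception at 0.20 and 9.25 TPM, a log2 ratio of 6.40. The part of the liver transcripts of replicate 2 in this difference was not tested.

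Prostaglandin genes were at low to moderate levels, with 12 of 20 at 1 TPM or more in both libraries. The highest were Ptges3 at 64.5 and 51.8 TPM, Cbr1 at 25.6 and 31.3 TPM and Ptges2 at 19.4 and 17.7 TPM. The cyclooxygenases, which supply the substrate, were low, with Ptgs1 at 4.19 and 4.75 TPM and Ptgs2 at 0.12 and 0.08 TPM, and the prostaglandin F receptor Ptgfr was at 0.16 and 0.18 TPM; these 3 were named after their values were seen. Of 19 tested, 3 were at least 2-fold higher in replicate 2, beside 10.3% of all genes tested. They were Hpgd, which breaks prostaglandins down, at 2.59 and 23.0 TPM, Slco2a1 and Ptgds. With spike-in totals Ptgds no longer passed and Ptger1 passed as lower.

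Among other aldo-keto reductases, 9 of 16 genes reached 1 TPM in both libraries. Akr1b7 was above each of them in both. The next by mean were Akr1c18 at 526.6 and 75.4 TPM, Akr1a1, the general aldehyde reductase, at 250.1 and 227 TPM and Akr1cl at 270 and 171 TPM, and in replicate 2 Akr1c18 was the lowest of these 3. Of 15 tested, 6 passed 2-fold as higher in replicate 2 (Akr1c6, Akr1c12, Akr1c13, Akr1c14, Akr1c19 and Akr1c20) and Akr1c18 alone as lower. Akr1b7 and Akr1c18 were thus the reductases that were at least 2-fold lower in replicate 2. Akr1c6, at 0.18 and 132 TPM, is known from liver, and in replicate 2 it exceeded Akr1c18.

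Other enzymes that clear aldehydes were measured in the same libraries. All 8 reached 1 TPM in both, with a median log2 ratio of 0.83, opposite in sign to Akr1b7. Replicate 2 holds the liver transcripts, and their part in this median was not tested. The mitochondrial aldehyde dehydrogenase Aldh2 was highest at 484 and 514 TPM, followed in both libraries by Aldh1a1 at 118 and 188 TPM. Adh5 came next by mean, at 58.4 and 85.9 TPM. Aldh7a1, at 29.5 and 91.4 TPM, and the glyoxalase Glo1, at 43.7 and 99.5 TPM, were at least 2-fold higher in replicate 2, as were 10.3% of all genes tested. In replicate 1 Akr1b7 exceeded Aldh2, and in replicate 2 it was below it.

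Genes listed for the supply of NADPH, the cofactor of all 4 members, were similar in both libraries. Malic enzyme Me1 was at 403 and 294 TPM, Pgd at 93.5 and 83.8 TPM and G6pdx at 47.7 and 32.1 TPM. Tkt, at 446 and 425 TPM, and Taldo1, at 218 and 169.9 TPM, were listed with them but do not themselves make NADPH. None of G6pdx, Pgd, Me1, Taldo1 and Tkt differed 2-fold. Of the 13 genes of the combined NRF2 and NADPH list, 3 passed 2-fold as higher in replicate 2 (Gclc, Gclm and Nqo1) and Srxn1, sulfiredoxin, as lower. Over all genes tested 10.3% were higher and 3.86% lower. The part of the liver transcripts of replicate 2 in the higher genes was not tested. Srxn1 was at 111 and 31.8 TPM, a log2 ratio of -1.52, close to the -1.49 of Akr1b7. The list median was 0.04. With total counts Nqo1, at 1.63 and 2.88 TPM, no longer passed 2-fold.

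The nuclear protein-coding genes nearest to each member in level over the 2 libraries were found by Euclidean distance in log2(TPM + 0.1). For Akr1b7 they were Hspa8, Sparc, Cyp11b1, Gnas and Scarb1, at distances of 0.67, 0.75, 0.77, 0.85 and 0.97, so no gene matched it closely. Cyp11b1 was at 1423 and 715.1 TPM and Scarb1, the receptor for high-density lipoprotein, at 736 and 341 TPM. Close matches were plentiful for the others. They were Got1, Sdcbp and Plpp1 for Akr1b3 at distances of 0.01 to 0.06, Eprs, Tpm4 and Ppp2r2a for Akr1b8 at 0.02 to 0.05 and Dusp6, Tmem123 and Pafah1b2 for Akr1b10 at 0.03 to 0.05. Akr1b7 ranked 11 and 81 among nuclear protein-coding genes, and the other members ranked between 606 and 2029. The part of these ranks in the distances was not tested. A likeness over 2 libraries is a description of these libraries.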

How the data were processed

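Total RNA sequencing of 2 adrenal gland libraries was analysed. The build (mm10) and annotation (M21) of every table are named in the text files that accompany the samples. Which programs were run, and whether strand was used, is not given in the sources used here. In the first quantification, made from a transcriptome alignment, the deposited values are expected counts, TPM and, for transcripts, the percent of the gene's TPM. In the second, made straight from the reads, the deposited values are estimated counts and TPM of transcripts, which were added up by gene here. GENCODE M21 gave coordinates and symbols for all 55536 gene identifiers. The posterior SD of each count is the authors' own.

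The members and the 20 lists were chosen with earlier results of these data known. Named genes were the members, the 3 list genes with the highest mean TPM (all genes of lists of up to 5) and those at least 2-fold different with a mean TPM of at least 5, genes within 100000 bases of the cluster, and the nearest genes by level; marker lists are given mostly by counts, and names outside the rule (Nr1i2, Akr1c12, Slco2a1, Ptgds, Nqo1, Ptgs1, Ptgs2, Ptgfr, Ptger1, Akr1d1, G6pdx, Pgd, Fdx1, Cyp21a1, Pnmt, the kidney genes and the sequence copies) were chosen after their values were seen. Aldoa was left out because its symbol has more than 1 identifier, and 1 list gene is not reported here. Rounded expected counts of genes with at least 10 in total were scaled by TMM (edgeR 4.0.16), with factors of 1.09 and 0.92; DESeq2 1.42.0 size factors were an alternative. Ratios have 95% exact Clopper-Pearson counting intervals. Their code was run on counts simulated with counting error alone, which says nothing about other spread between libraries. Sequences were compared with Biopython 1.88. Counts on entries that name no gene were left out.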

Additional observations from a re-analysis of the deposited data

How the results depend on the processing

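Levels depended on what TPM is relative to. In the second quantification the mean was 197 TPM for Akr1b3, 93.1 for Akr1b8 and 62.2 for Akr1b10. For Akr1b7 it was 1494 against 907 TPM, counted as unmoved only because its SD was 688 TPM. Rescaled to nuclear protein-coding genes the means were 213 TPM for Akr1b3, 2720.0 for Akr1b7, 177 for Akr1b8 and 119 for Akr1b10. With the longest coding transcript alone, an alternative added after the data were seen, Akr1b3 was at 43.4 TPM. Its log2 TPM over Akr1b8 was then -0.43, the opposite sign to that of the whole genes. In the second quantification the gap was 1.11 for the whole genes and -0.69 for the longest coding transcripts. The share of TPM on Akr1b3-201 was 28.9% and that on Akr1b8-201 100% in the second quantification. Scaled to the steroidogenic cortex genes, also added later, the log2 ratio was 0.31 for Akr1b3, 0.10 for Akr1b8 and 0.26 for Akr1b10, reversed in sign, and -0.84 for Akr1b7, no longer 2-fold. The share of genes at least 2-fold different was 29.6% with no filter on low counts, because genes with a few counts enter. The other 73 planned and 4 added values kept their direction and side of 2-fold or moved by less than 1 SD, including the log2 ratio of Akr1b7, which ranged from -1.86 to -1.49 over the planned scalings and counts. Leaving out either library gives the other library's value, as printed above for each gene. With 2 libraries that value always lies within 1 SD of the mean. Values with a library left out could therefore not be counted as moved, and they say nothing about stability. The cause of these shifts was not tested apart from the transcript lengths given above. No paired analysis was possible because there is 1 group. Depth limits the members little, since the lowest count of a member was 1282.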

Other observations

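Akr1d1, the steroid 5-beta-reductase best known from liver bile acid synthesis, stood at 32.1 and 29.7 TPM in replicates 1 and 2, a log2 ratio of 0.10 with TMM and -0.14 with total counts. The 8 liver genes over the same libraries summed to 112 and 22254 TPM. Fabp2, of the intestine list, was listed at 0 and 10.1 TPM.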
